A study of Mus musculus with 6 samples.

Results

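The endocannabinoid enzymes and receptors were followed as 7 genes chosen by name: Faah, Napepld, Cnr1, Cnr2, Mgll, Dagla and Daglb. All 7 were on the array, through 10 probes in all, and 6 of them were among the 14847 genes whose signal was high enough to test. RNA from the whole uterus was taken at GD 3.5, 3 days after the plug, from females mated at 8 to 10 weeks of age, after the embryos had been flushed out. The control group was Sox17 f/f (3 mice, 1 mouse per array), which carry floxed Sox17 and no Cre. The other group was LtfiCre/+ Sox17 f/f (3 mice, 1 mouse per array), called Sox17 ed/ed here. Both groups were homozygous for the floxed allele, and no group with the Cre alone was measured here. iCre is expressed from the Ltf locus in the uterine epithelium from puberty on, so Sox17 was deleted in the epithelium and remained in the endothelium. The comparison asks how loss of this epithelial transcription factor changes uterine RNA on the day before attachment.

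Endocannabinoids are lipid messengers made from membrane phospholipids on demand and destroyed inside cells. Anandamide is released from its phospholipid precursor by NAPE-PLD (Napepld), among other routes, and is hydrolyzed by fatty acid amide hydrolase (Faah). The glycerol ester, 2-arachidonoylglycerol, is made from diacylglycerol by the diacylglycerol lipases (Dagla, Daglb) and is broken down mainly by monoacylglycerol lipase (Mgll). Both lipids act on the G protein-coupled receptors CB1 (Cnr1) and CB2 (Cnr2). In the mouse uterus anandamide is known to be low when the tissue is receptive and at the sites of implantation, and the early embryo carries both receptors.

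The share of non-control spots that rose well above background was 60.7% to 65.7% per control array and 56.8% to 59.4% per Sox17 ed/ed array. The 6 arrays lay on 1 slide, with all Sox17 f/f arrays in one line of it and all Sox17 ed/ed arrays in the other, so position on the slide and genotype cannot be told apart. Sox17 itself, the deleted gene, had a normalized log2 signal of 12.17 ± 0.09 (SD, n = 3) in control uteri and of 9.72 ± 0.11 (SD, n = 3) after the deletion (log2 fold change -2.45, SE 0.09). All 3 Sox17 ed/ed arrays were below all 3 Sox17 f/f arrays, as the labels require.

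The promoters of Faah, Napepld and Mgll are shown because Faah and Mgll are the genes of the 7 that were called, and Napepld is the producing counterpart of Faah. The sequences come from RefSeq on GRCm38.p6, whose promoter table held 10 promoters for 6 of the 7 genes. Each promoter there runs from 250 bases before to 50 bases after a transcription start, and the 250 bases before the start are printed 5′ to 3′ on the strand of the gene. Faah lies on chromosome 4 (chr4:116017925-116018174, minus strand), Napepld on chromosome 5 (chr5:21701623-21701872, minus strand) and the first Mgll promoter on chromosome 6 (chr6:88724162-88724411, plus strand). Capitals mark the estrogen receptor half-site GGTCA or its complement TGACC.

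Faah: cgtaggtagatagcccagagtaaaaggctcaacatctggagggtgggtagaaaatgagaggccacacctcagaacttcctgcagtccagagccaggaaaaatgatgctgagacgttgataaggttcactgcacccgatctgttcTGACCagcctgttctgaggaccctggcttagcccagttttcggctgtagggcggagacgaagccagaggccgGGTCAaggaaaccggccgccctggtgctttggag
Napepld: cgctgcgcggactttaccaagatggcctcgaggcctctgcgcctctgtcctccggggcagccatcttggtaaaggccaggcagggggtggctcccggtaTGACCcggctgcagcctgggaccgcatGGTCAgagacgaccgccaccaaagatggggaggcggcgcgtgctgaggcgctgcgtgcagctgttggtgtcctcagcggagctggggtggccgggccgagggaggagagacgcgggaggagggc
Mgll: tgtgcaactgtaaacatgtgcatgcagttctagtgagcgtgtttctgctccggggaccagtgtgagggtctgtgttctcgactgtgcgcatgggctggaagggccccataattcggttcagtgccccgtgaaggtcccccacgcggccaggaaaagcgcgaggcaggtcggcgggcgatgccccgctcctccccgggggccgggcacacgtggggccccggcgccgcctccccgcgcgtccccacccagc

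The promoters of Faah and of Napepld each held 2 such half-sites, and neither Mgll promoter held any. A half-site is common, being present in 40.5% of the 32851 promoters of the same length, and it stood in 5 of the 10 promoters of these genes. The SOX core ATTGT, searched on both strands, was present in 31% of all promoters and in 2 of the 10, which were 1 promoter of Cnr1 and 1 of Cnr2. Neither a full estrogen response element (GGTCA followed after any 3 bases by its complement, so that it holds 2 half-sites) nor a progesterone receptor palindrome core (ACANNNTGT, the same on both strands) was found in any of the 10, against 0.07% and 6.85% of all promoters. In base composition the printed promoters differed: over the 300 bases Faah had 16 CpG and 57.7% GC, Napepld 28 CpG and 70.3% GC, and the first Mgll promoter 32 CpG and 70% GC, where the median promoter had 7 CpG and 52.7% GC.

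The degrading enzymes Faah and Mgll were higher in Sox17 ed/ed uteri, and none of the other 4 tested genes passed the test in either direction. A gene was called when its unadjusted p was below 0.01 and its fold change at least 1.4 in limma, the thresholds named in the study's methods. By this rule 2 of the 6 genes tested were called, both higher, where 12.5% of all genes tested were called, 6.04% higher and 6.47% lower. The same 2 passed an adjusted p below 0.05, as did 18.9% of all genes (8.84% higher and 10.1% lower). An unadjusted p below 0.05, given further on only where a list has no call, was reached by 33.9% of all genes. The arrays of the genotypes did not overlap for 3 of the 6 (Faah, Mgll and Dagla), and for 40.6% of all genes. The median log2 fold change was 0.07 over the 6 and 0.00 over all genes. With so few genes, these shares describe the list only. With 3 arrays against 3, the smallest exact two-sided permutation p for any 1 gene is 0.1.

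**Figure D1:**
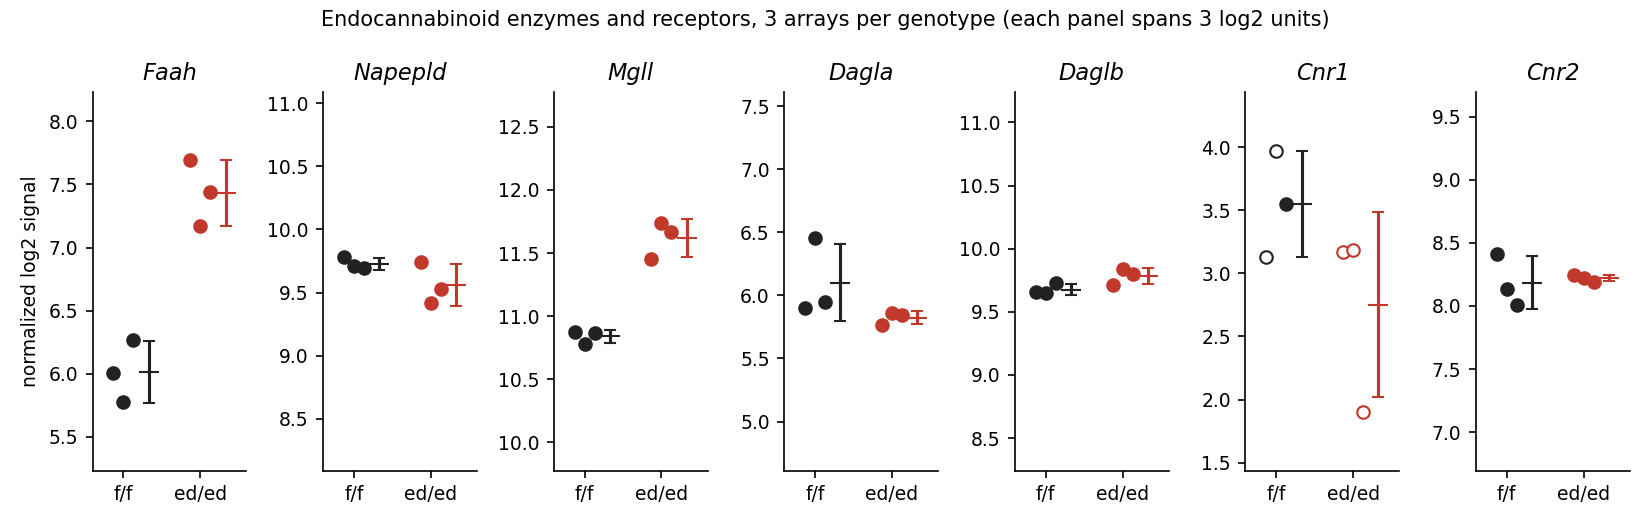
Normalized log2 signal of each gene on each array (points), with the mean and SD of each genotype (bars, n = 3); every panel spans 3 log2 units but starts at its own level, and open points were not well above background. The Sox17 ed/ed points lie above every Sox17 f/f point for Faah and Mgll, while for Cnr1 only 1 of 6 points is filled.

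Faah, which ends anandamide signaling, showed the largest difference of the 6 genes tested. Its processed signal, the spot fluorescence after background subtraction in arbitrary units, was 59.8, 54.6 and 83.8 in the control uteri and 208, 136 and 176 in the Sox17 ed/ed uteri. After normalization the log2 signal was 6.005, 5.77 and 6.27 in Sox17 f/f and 7.69, 7.17 and 7.44 in Sox17 ed/ed uteri. The groups were thus apart, with 0.90 log2 units between the highest control and the lowest Sox17 ed/ed array. The mean rose from 6.01 ± 0.25 (SD, n = 3) to 7.44 ± 0.26 (SD, n = 3), which was 2.68-fold higher (95% CI 1.99 to 3.60, log2 fold change 1.42, SE 0.18, adjusted p = 0.00321). Faah rested on 1 probe with 1 spot, dim but well above background on all 6 arrays. A background correction that adds an offset of 50 to every signal gave a log2 fold change of 0.79, smaller than the 1.42 above but still called.

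Napepld, the anandamide-producing phospholipase, did not pass the test. Its normalized log2 signal was 9.78, 9.71 and 9.69 on the control arrays and 9.74, 9.41 and 9.53 on the Sox17 ed/ed arrays. Replicate 1 of Sox17 ed/ed lay within the control range, and the other two Sox17 ed/ed arrays were below it. The log2 fold change was -0.16 (SE 0.10, 95% CI -0.40 to 0.07, adjusted p = 0.291), so the interval lies inside the 1.4-fold threshold of 0.485 log2 units on either side. It was -0.25 without Sox17 ed/ed replicate 1 and -0.09 without Sox17 ed/ed replicate 2, and was called in neither case. The gene models Gm51277 and Gm15719 overlap Napepld in the RefSeq gene table, and whether their RNA binds this probe was not tested.

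Within each array, the shift of Faah relative to Napepld was 1.59 log2 units between the genotypes (SE 0.16). The arrays of the groups did not overlap in it (exact two-sided permutation p = 0.1, the smallest the design allows). Faah alone was already apart by 0.90 log2 units, more than Napepld varied over the 6 arrays. The non-overlap was thus set beforehand and adds no separate support. This shift was 1 of 3 computed, each of a degrading against a producing enzyme of the same lipid. After Benjamini-Hochberg adjustment each had an exact permutation p of 0.1.

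Of 10 other enzymes in the parallel routes to anandamide, 7 were tested and 3 were called, 1 higher and 2 lower. Of all genes tested, 12.5% were called, and with so few enzymes the count describes the list only. The median log2 fold change of the 7 enzymes was -0.19. Gdpd1, a lysophospholipase D acting on N-acyl lysophospholipids, rose from 8.39, 8.16 and 8.28 to 9.09, 8.96 and 8.92 (log2 fold change 0.71, SE 0.09, adjusted p = 0.00306). Gdpd3, an enzyme of the same family, fell from 11.34, 11.55 and 10.98 to 10.44, 10.44 and 9.65 (log2 fold change -1.12, SE 0.26, adjusted p = 0.030). Plaat3, a phospholipid acyltransferase and phospholipase, fell from 8.80, 8.40 and 8.82 to 7.92, 8.14 and 8.00 (log2 fold change -0.65, SE 0.13, adjusted p = 0.0206).

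The genotypes did not overlap in any of these 3 genes, which were picked by their calls, nor in 40.6% of all genes tested. Gdpd1 was called in every alternative run, and the other two were not. Gdpd3 was no longer called without Sox17 f/f replicate 1 (log2 fold change -1.09) or Sox17 f/f replicate 2 (-0.99). Plaat3 was no longer called without Sox17 f/f replicate 1 (-0.59), Sox17 ed/ed replicate 1 (-0.60) or Sox17 ed/ed replicate 3 (-0.65). The member of the list with the brightest signal, Abhd4, a lipase that deacylates the anandamide precursor, had a log2 fold change of 0.03 (SE 0.09, 95% CI -0.19 to 0.26). Pla2g4e, Plaat1 and Plaat5 were well above background on 0 of 6 arrays.

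Mgll, the main hydrolase of 2-arachidonoylglycerol, was higher in Sox17 ed/ed uteri through each of its 3 detected probes. The brightest of them, probe A_55_P2063316, gave a processed signal of 1811, 1862 and 1986 on the control arrays and 2769, 3138 and 3245 on the Sox17 ed/ed arrays. Its normalized log2 signal was 10.87, 10.78 and 10.87 in Sox17 f/f against 11.45, 11.74 and 11.67 in Sox17 ed/ed uteri. All Sox17 ed/ed arrays were above all controls, by 0.58 log2 units at the closest. The mean rose from 10.84 ± 0.05 (SD, n = 3) to 11.62 ± 0.15 (SD, n = 3), which was 1.72-fold higher (95% CI 1.47 to 2.01, log2 fold change 0.78, SE 0.09, adjusted p = 0.00261).

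The other probes of Mgll are assigned to its transcript records in the array's annotation. A second probe for the same record (A_55_P2114863) read 9.66, 9.53 and 9.50 against 10.21, 10.41 and 10.23, a log2 fold change of 0.72 (SE 0.09, adjusted p = 0.00692 over 32734 probes). A probe for the other record (A_55_P2063312) read 8.87, 8.99 and 8.83 against 9.71, 9.68 and 9.46, a log2 fold change of 0.72 (SE 0.10, adjusted p = 0.00913 over 32734 probes). The last probe for that record (A_55_P2063311) was well above background on 0 of 6 arrays and gives no fold change. The size of the rise was thus close to the same in the 3 probes that could be read, and levels are not compared between probes.

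**Figure D2:**
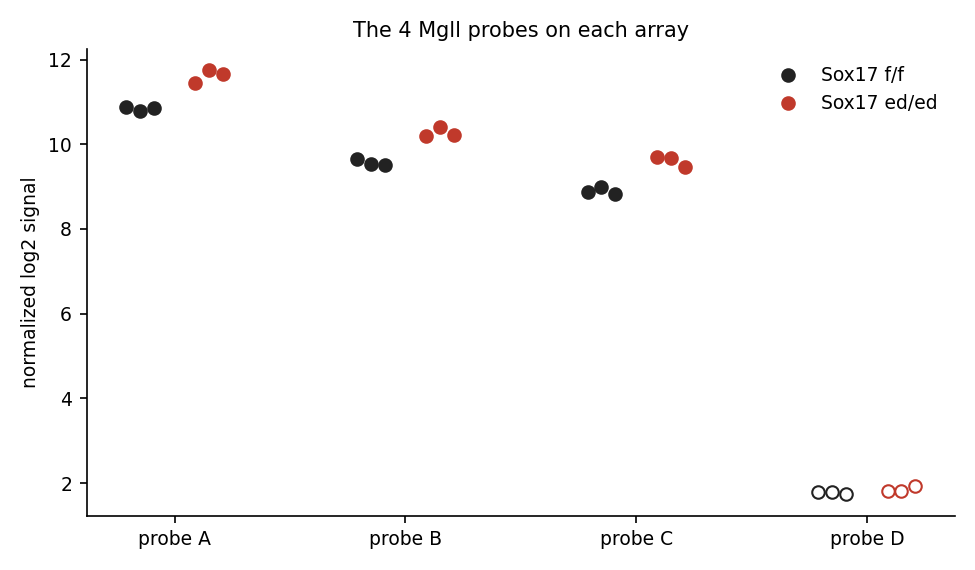
Normalized log2 signal of the 4 Mgll probes on each array (points, 3 per genotype), ordered by signal (from the left A_55_P2063316, A_55_P2114863, A_55_P2063312 and A_55_P2063311); open points were not well above background. In the 3 detected probes every Sox17 ed/ed point lies above every Sox17 f/f point.

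The diacylglycerol lipases that produce 2-arachidonoylglycerol did not pass the test. Dagla read 5.90, 6.45 and 5.95 on the control arrays and 5.77, 5.86 and 5.84 on the Sox17 ed/ed arrays. The groups did not overlap, but by only 0.04 log2 units, and Sox17 f/f replicate 2 stood above the rest. The log2 fold change was -0.28 (SE 0.15, 95% CI -0.65 to 0.10, adjusted p = 0.264), and it was -0.10 without Sox17 f/f replicate 2 and -0.16 with the background correction that adds an offset. This interval reaches past the 1.4-fold threshold, so a fall of that size could not be told from none. Gene models of the RefSeq table also overlap Dagla (Gm30042) and Mgll (Gm26588), and whether their RNA binds the probes was not tested.

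Daglb, measured by 10 spots of 1 probe on each array, was the member with the most technical repeats. It read 9.66, 9.65 and 9.73 against 9.71, 9.84 and 9.80, and Sox17 ed/ed replicate 1 lay within the control range. The log2 fold change was 0.11 (SE 0.07, 95% CI -0.05 to 0.27, adjusted p = 0.317), which lies inside the 1.4-fold threshold. The SD between single spots within an array was 0.04 to 0.09 log2 units over the 8 to 10 spots used. The SD between arrays of a genotype was 0.04 and 0.07. Each array value there is a mean over its spots, so these SDs are of unlike quantities and are not compared.

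The shift of Mgll relative to Daglb within each array was 0.67 log2 units (SE 0.05), and relative to Dagla it was 1.06 (SE 0.21). The groups did not overlap in either shift, and each exact two-sided permutation p was 0.1. Mgll alone was already apart by 0.58 log2 units, more than Daglb varied over the 6 arrays, and Dagla was apart in the other direction. These non-overlaps were thus also set beforehand and add no separate support.

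Upstream of the lipases, 9 of 10 phospholipases C, which release diacylglycerol from phosphoinositides, were tested and 1 was called, against 12.5% of all genes. It was Plcd3, a delta-class enzyme, which rose from 9.78, 9.85 and 9.98 to 10.94, 10.80 and 10.86 (log2 fold change 0.997, SE 0.08, adjusted p = 0.000548). Its second probe gave 0.81. Plcd1, the brightest of the list and of the same class, had a log2 fold change of -0.19 (SE 0.08, adjusted p = 0.134), which was -0.01 with the background correction that adds an offset. The median of the list was 0.02.

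Of the receptors, Cnr2 was measured well above background on all 6 arrays and Cnr1 on 1. Cnr2, best known from immune cells, read 8.41, 8.13 and 8.01 in Sox17 f/f against 8.24, 8.22 and 8.19 in Sox17 ed/ed uteri. The Sox17 ed/ed values lay within the control range. The log2 fold change was 0.03 (SE 0.11, 95% CI -0.24 to 0.31, adjusted p = 0.863), inside the 1.4-fold threshold, and its sign turned with the background correction (-0.03) and without Sox17 f/f replicate 3 (-0.05).

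Cnr1, the receptor best known from nerve cells and from the early embryo, was not testable in this tissue. Its processed signal was 8.08, 14.9 and 19.2 on the control arrays and 7.76, 7.38 and 3.76 on the Sox17 ed/ed arrays, while the lowest signal counted as well above background was 13.1 to 18.0 on these arrays. It was well above background on Sox17 f/f replicate 3 alone, and a bound on the fold change came out under 1, so no fold change is given. The normalized log2 means were 3.55 and 2.75, a difference within the range where signals near background have no reliable order.

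Among 7 other receptors of endocannabinoids and related lipids, 3 were tested and none was called in limma, although all 3 had an unadjusted p below 0.05, against 33.9% of all genes. The nuclear receptors Ppara, Ppard and Pparg had log2 fold changes of 0.29 (SE 0.09, adjusted p = 0.072), -0.32 (SE 0.08, adjusted p = 0.0456) and -0.36 (SE 0.09, adjusted p = 0.0381). Of 2 further Ppara probes, A_55_P2071601 gave 0.05 (SE 0.09) and A_55_P2071596 gave 0.28 (SE 0.23), so the probes of Ppara did not give the same size. Ppard, a receptor known in the implanting mouse uterus and the brightest of the list, read 10.87, 10.69 and 10.73 in Sox17 f/f against 10.34, 10.53 and 10.45 in Sox17 ed/ed uteri. Both falls were under the 1.4-fold threshold while having an unadjusted p below 0.01 (0.00822 for Ppard and 0.00623 for Pparg). Trpv1, Gpr55 and Gpr119 were well above background on 0 arrays and Gpr18 on 1.

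The receptor partners and inhibitory G proteins gave no call in limma either, with 9 of 10 tested, 1 at an unadjusted p below 0.05, and a median log2 fold change of -0.01. Gnai2, an inhibitory G protein alpha subunit with the brightest signal of the list, had a log2 fold change of -0.25 (SE 0.16, adjusted p = 0.321), which was -0.09 without Sox17 ed/ed replicate 3. Arrb1, which turns off activated receptors, had -0.37 (SE 0.09, unadjusted p 0.00648, adjusted p = 0.039), under the fold threshold. Cnrip1, a protein that binds CB1, and the beta-arrestin Arrb2 were among the genes that were not called.

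Other enzymes that break down or oxidize endocannabinoids moved in both directions, with 2 of 6 called (12.5% of all genes) and a median of -0.23. Ptgs2, the cyclooxygenase known from the implantation site, which also oxidizes endocannabinoids, rose from 5.79, 5.70 and 5.59 to 6.86, 6.30 and 6.91 (log2 fold change 0.998, SE 0.17, adjusted p = 0.0115). With the background correction that adds an offset it was 0.56, still called. Alox15, a lipoxygenase, fell from 10.47, 11.43 and 9.61 to 8.54, 8.55 and 8.62 (log2 fold change -1.93, SE 0.42, adjusted p = 0.0261). The Sox17 f/f arrays spread widely in Alox15, and it was not called without Sox17 f/f replicate 1 (log2 fold change -1.95) or without any 1 of the Sox17 ed/ed arrays (-1.92, -1.92 and -1.96).

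Naaa, the acid amidase of lysosomes and the brightest of that list, had a log2 fold change of -0.44 (SE 0.10, adjusted p = 0.024) and Abhd6, a monoacylglycerol hydrolase, 0.41 (SE 0.09, adjusted p = 0.0303). Both had adjusted p below 0.05 but were under the fold threshold, and Naaa passed it without Sox17 ed/ed replicate 1 (-0.50). Abhd6 read 8.13, 7.85 and 8.11 in Sox17 ed/ed uteri against a control mean of 7.62. Replicates 1 and 3 of Sox17 ed/ed each stood above that mean by more than the fold threshold, so Abhd6 passed it without replicate 2. The p of Abhd6 with arrays left out was not recorded, so whether it was called there is not given. All 4 intracellular carriers were tested and none was called in limma (0 at an unadjusted p below 0.05), with a median of 0.04 and a log2 fold change of 0.12 (SE 0.07, adjusted p = 0.297) for Scp2, the brightest.

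**Figure D3:**
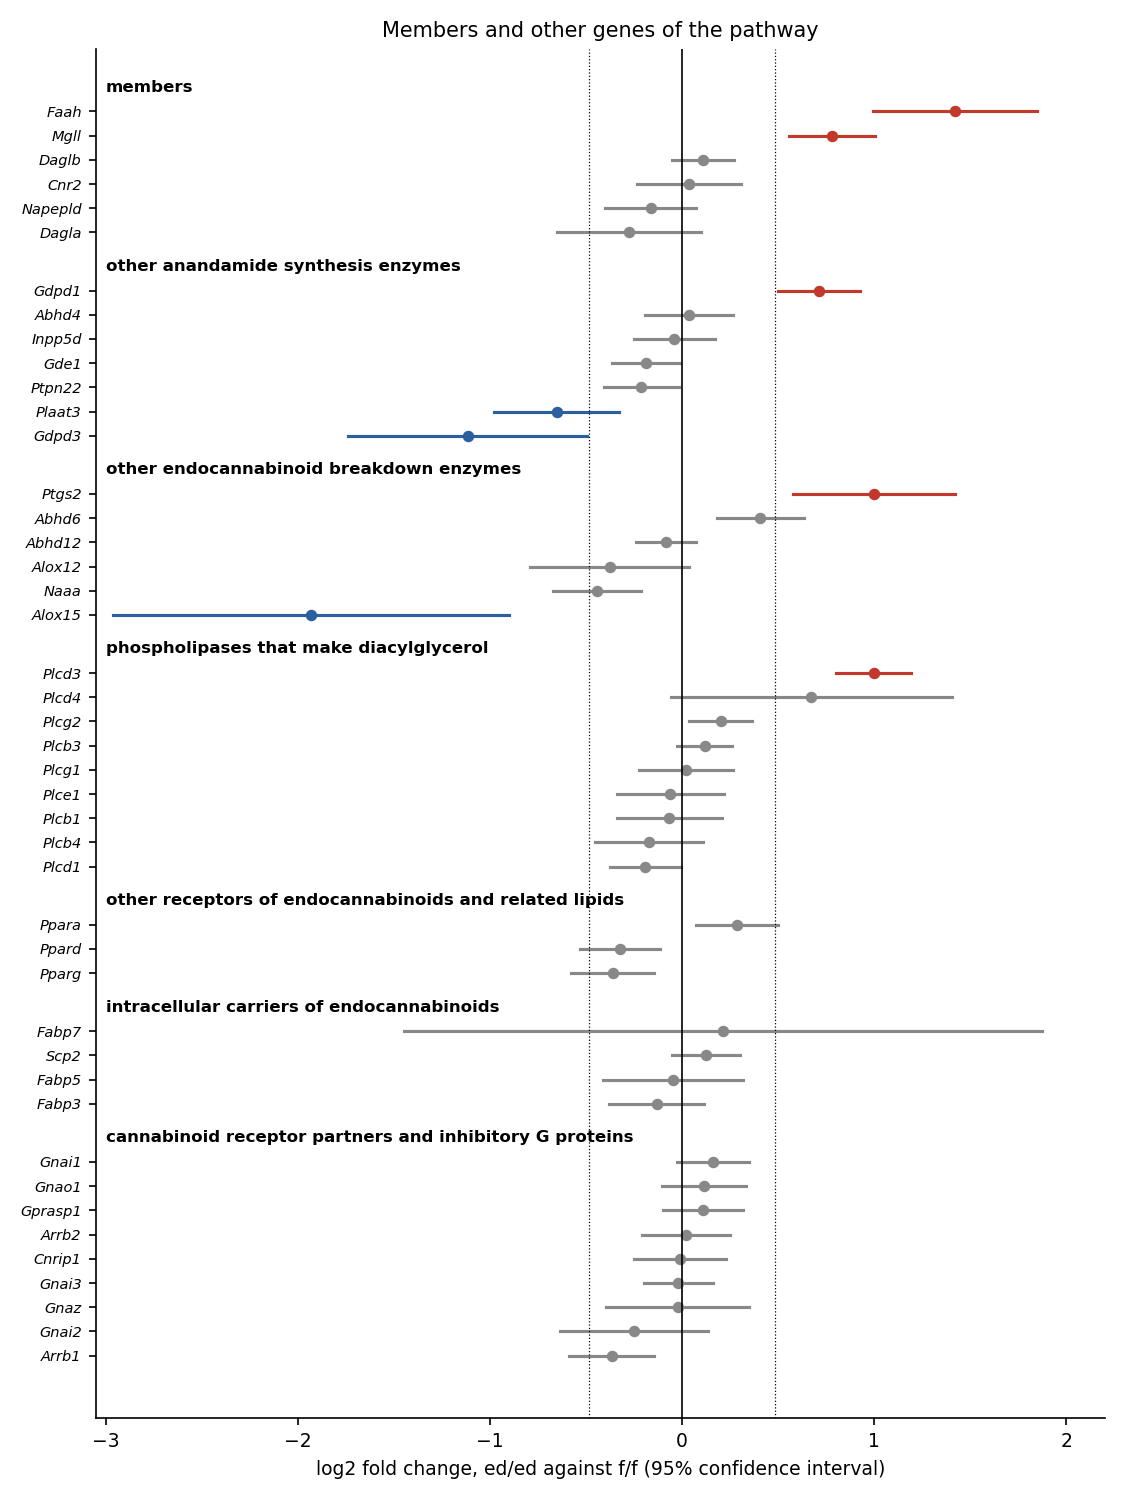
Log2 fold change of Sox17 ed/ed against Sox17 f/f with its 95% confidence interval for each tested gene, grouped by role; the heading "members" marks Faah, Napepld, Cnr2, Mgll, Dagla and Daglb, red and blue mark genes called higher and lower, and dotted lines mark a fold change of 1.4. Faah at 1.42 and Mgll at 0.78 are the red points of the first group, and Alox15 at -1.93 is the lowest point of all.

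The genes whose 6 values ran most like those of Faah, by Euclidean distance of mean-centered log2 signal over 6 arrays, were St6galnac2, a sialyltransferase (distance 0.23), Tesc, a calcium-binding protein (0.27), and Il17re, an interleukin receptor subunit (0.27). They were sought among 14761 genes with values on all 6 arrays, and 26 genes lay within 2 times the first distance. St6galnac2 read 10.96, 10.88 and 11.23 in Sox17 f/f against 12.72, 12.39 and 12.51 in Sox17 ed/ed uteri, so that, as in Faah, replicate 3 was the highest control and replicate 1 the highest of Sox17 ed/ed. For Mgll the nearest were Acp5, an acid phosphatase (0.13), Zfp618, a zinc finger protein (0.15), and Col4a3, a collagen chain (0.17), with 28 genes within 2 times the first distance. Acp5 read 11.82, 11.74 and 11.79 against 12.54, 12.73 and 12.69. The likeness is given as a description.

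Because whole uteri were measured, a change in the number of cells of a type and a change in RNA per cell cannot be told apart. For the counts of markers given from here on, 12.5% of all genes were called and 33.9% had an unadjusted p below 0.05 in limma. Of 11 markers of luminal and glandular epithelium, all tested, 5 were called higher, among them Krt19 (log2 fold change 2.10) and Krt7 (1.46), and 2 lower, Cldn3 (-1.16) and Cldn7 (-0.72). The summed log2 signal of these markers was 15.77 to 15.85 in Sox17 f/f and 15.82 to 16.11 in Sox17 ed/ed uteri. The brightest of them, Krt18, had a log2 fold change of -0.16 and was not called. The median log2 fold change of the 11 was 0.59, where that of all genes was 0.00. The list thus moved in both directions, with its median upward, beside the rise of Faah and Mgll. Its part in that rise was not tested.

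Markers of other cells were read in the same way. For stratified squamous epithelium the sum was 11.29 to 11.56 in Sox17 f/f and 11.69 to 11.89 in Sox17 ed/ed uteri. Of 5 tested, 2 were called higher, Krt5 and Krt15. Neither was well above background on any Sox17 f/f array through the probe used. Both thus entered the test only through the Sox17 ed/ed arrays, and their count is given as a description. Another Krt5 probe (A_66_P116076) was well above background on 1 array, Sox17 f/f replicate 3, with means of 3.39 in Sox17 f/f and 2.64 in Sox17 ed/ed uteri. The count and the sum take the brightest probe of each gene, by which Trp63 had a log2 fold change of -0.12 and Krt13 of 0.06. In Sox17 f/f uteri the sum lay close to this Trp63 probe alone (11.51, 11.38 and 11.24). The sum thus says little about the dim markers, such as Krt15 with means of 2.69 in Sox17 f/f and 9.65 in Sox17 ed/ed uteri. A second probe of Trp63 (A_51_P216550) and a second of Krt13 (A_55_P2006296) were well above background on all 3 Sox17 ed/ed arrays and on 0 Sox17 f/f arrays, with mean log2 signals of 3.18 in Sox17 f/f and 7.80 in Sox17 ed/ed uteri for Trp63 and of 2.41 and 5.35 for Krt13, so the probes of these genes disagreed. The part of this list in the rise of Faah and Mgll was not tested. For macrophages and other leukocytes the sum was 14.22 to 14.27 in Sox17 f/f and 14.47 to 14.60 in Sox17 ed/ed uteri, with Nkg7 called higher of 7 tested. The others, not called, had log2 fold changes of 0.41 (Csf1r, the brightest), 0.28 (Lyz2), 0.22 (Itgam), 0.09 (Cd3e), -0.06 (Ptprc) and -0.11 (Adgre1). Further probes of Itgam gave -0.27 (SE 0.15) and -0.01 (SE 0.13), so its probes disagreed in sign. Those of Csf1r gave 0.40 and 0.17, and that of Adgre1 gave 0.01. These markers thus did not move as 1. Cnr2 lay within its control range on all 3 Sox17 ed/ed arrays, as given above, and the part of these cells in the other values was not tested. For adipocytes, a known site of high Mgll, none of 3 tested was called in limma (1 at an unadjusted p below 0.05). The sum was 7.10 to 7.97 against 6.93 to 7.96, and Plin1, Cidec and Lep were well above background on 0 arrays. Fabp4, the 1 with that p, had a log2 fold change of -0.78 (SE 0.28). Adipoq had 0.95 (SE 0.92), which was also the median, and Cfd 1.08 (SE 0.59), and in both the genotypes overlapped. The sum thus joins markers of opposite sign and does not show that they were unchanged. The part of adipocytes in the rise of Mgll was not tested.

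In the remaining lists the sum of signals was lower in Sox17 ed/ed uteri. It was 17.56 to 17.61 in Sox17 f/f against 17.30 to 17.45 in Sox17 ed/ed uteri for stroma (0 of 9 called in limma, 5 at an unadjusted p below 0.05), 18.92 to 19.06 against 18.49 to 18.76 for smooth muscle (1 of 8 called, lower), and 15.78 to 15.81 against 15.32 to 15.45 for endothelium (0 of 7 called in limma, 5 at an unadjusted p below 0.05). For nerve and Schwann cells it was 9.18 to 9.31 against 8.63 to 8.94, with 2 of 6 called lower (Tubb3 and Prph). The lower stromal sum followed Dcn, the brightest of its markers (log2 fold change -0.42), while the other 4 stromal markers with an unadjusted p below 0.05 were higher in Sox17 ed/ed uteri (Hoxa10 0.34, Hand2 0.32, Pdgfra 0.29 and Hoxa11 0.17), and the median of the 9 was -0.02. The 5 endothelial markers with an unadjusted p below 0.05 were all lower by the probes used. For Kdr, 1 of them (log2 fold change -0.37), a second probe (A_55_P2094469) gave -0.05 (SE 0.12), so its probes did not give the same size. The part of these cells in the values of Faah and Mgll was not tested.

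The calls of Faah and Mgll held in every alternative run. Over the 8 other ways of processing, the log2 fold change was 0.79 to 1.45 for Faah and 0.73 to 0.78 for Mgll, and with 1 array left out it was 1.29 to 1.55 for Faah (adjusted p 0.00412 to 0.0177) and 0.72 to 0.86 for Mgll (adjusted p 0.00329 to 0.015). Napepld, Dagla, Daglb and Cnr2 were called in none of these settings, nor under the rule on adjusted p.

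**Figure D4:**
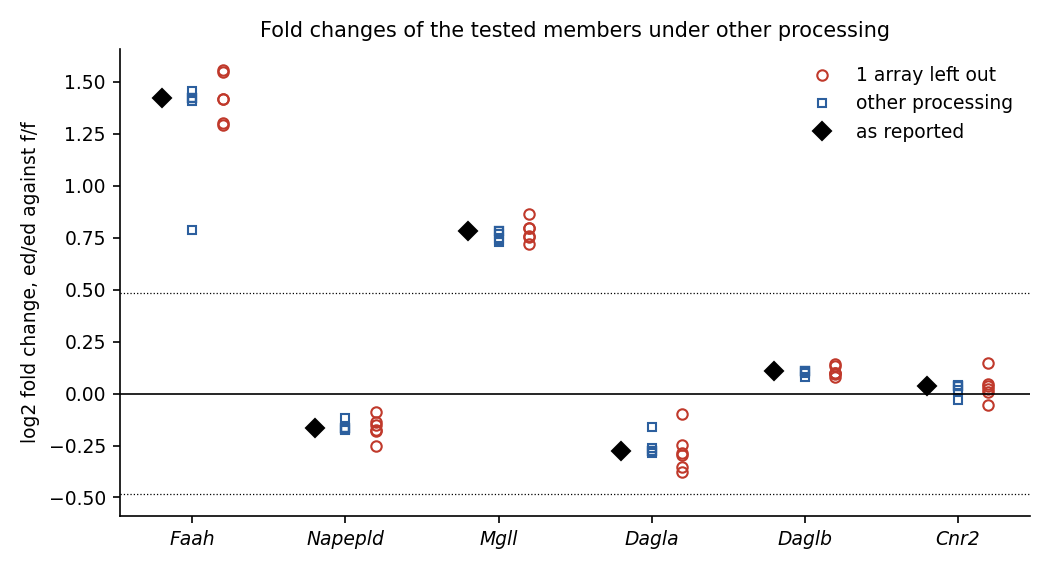
Log2 fold change of Sox17 ed/ed against Sox17 f/f for the 6 tested genes as reported (black), under other processing (blue squares) and with 1 array left out (red circles); dotted lines mark a fold change of 1.4. Faah and Mgll stay above the upper line throughout, and the low blue square of Faah at 0.79 is the background correction with an offset.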

How the data were processed

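RNA from 6 whole uteri, 3 per genotype as the labels give it, was measured on 1-color Agilent G3 Mouse arrays. The authors deposited the scanner output made with Feature Extraction 11.0.1.1 per the file headers (9.1 in the submitters' processing notes). As spot intensity, the deposited column of processed signal was taken, which is background-subtracted within each array; the deposited table of values was within 1% of it for 100% of probes and carries no normalization between arrays. Control and outlier spots (169 to 302 per array) were left out; 0 spots were saturated. In R 4.3.3 with limma 3.58.1, log2 intensity was quantile normalized, spots were averaged per probe, and a probe was kept if 3 or more of the 6 arrays read it well above background. The brightest probe stood for each of the 14847 genes tested. Of 55681 probes, 26582 were matched to 20145 genes by RefSeq accession. Genotypes were compared by lmFit and eBayes (two-sided, Benjamini-Hochberg over all genes tested). A gene was called at unadjusted p below 0.01 and a fold of at least 1.4; single values also had an exact permutation test. Summed marker signals are log2 of summed linear signals. The self-test ran on simulated data. The number of arrays limits the precision.

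The genes and lists were chosen with earlier results of these data known. Genes named beyond the 7 were those called in each pathway list, its brightest gene and the 3 nearest to each called gene; Ppara, Pparg, Arrb1, Abhd6 and the markers were named after their values were seen. Alternatives were a percentile shift, normexp, 2 other filters, the mean over probes, an intensity trend, the deposited table, the replicate number as a block, an adjusted p rule and leaving out each array. normexp used the median signal, as the scanner columns used here hold no mean signal.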

Additional observations from a re-analysis of the deposited data

How the results depend on the processing

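With 3 arrays per genotype and Cnr1 at background, differences smaller than the intervals given could not be seen. The directions and calls of Faah, Mgll, Napepld, Dagla and Daglb held under each alternative. With normexp background correction (offset 50) the difference of Cnr1 was -0.16 and the log2 fold change of Cnr2 -0.034, and Col4a3 at 0.27 no longer passed the fold threshold. The sign of Abhd4 turned with the 75th percentile shift (-0.016). With arrays left out, Cnr2 ranged from -0.055 to 0.149 (below 0 without Sox17 f/f replicate 3), Abhd4 ranged from -0.035 (without Sox17 f/f replicate 2) to 0.092, and was also below 0 without Sox17 ed/ed replicate 2 (-0.014), the call count of other anandamide synthesis enzymes ranged from 1 to 3 (1 without Sox17 f/f replicate 1) and that of other breakdown enzymes from 1 to 2 (1 without Sox17 ed/ed replicate 3). Among the breakdown enzymes, Alox15 lost its call in 4 of these 6 runs and Ptgs2 kept its call in all. A count of 2 thus did not always hold the same 2 enzymes. The rule on adjusted p below 0.05 called 2808 genes against 1857, 4 other breakdown enzymes against 2, 2 other receptors against 0 and 1 receptor partner against 0. Scp2 moved from 0.12 to 0.05 with the percentile shift and to 0.23 with normexp. The causes were not tested.

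The replicate numbers did not pair the samples: deviations of same-numbered arrays correlated at 0.06, -0.11 and -9.5e-05, and 1 of 3 numbers matched its own best. With the replicate number as a block 1796 genes were called, Faah kept 1.42 (adjusted p = 0.00691) and Mgll 0.78 (adjusted p = 0.0195), and Plaat3 was not called (-0.65, adjusted p = 0.0676). A block on slide or scan was not run, since all arrays lay on 1 slide with each genotype in its own line.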
